A study of Mus musculus with 5 samples.

Results

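Genes that mark the sebaceous gland and its lipid synthesis were followed in ear skin: Scd1, Scd3, Elovl3, Awat1, Awat2, Soat1, Fads2, Far2, Mc5r and Krt79. They were chosen by name, from what is known of the gland, but with earlier results of these data known. The Entrez identifiers of all 10 members were found among the 27179 in the count table. RNA sequencing compared the ear skin of B6 mice lacking Cd1d, which presents lipids to natural killer T cells, with that of control mice, and the comparison asked how the skin transcriptome differs without Cd1d. The knockout (KO) group had 2 libraries, titled Cd1d -/-, and the control group had 3, which the titles call Cd1d +/- and the genotype tag calls WT. The labels name no treatment, age or kind of Cd1d allele for these 5 B6 skin libraries and do not state that each library was a separate mouse, so p-values measure the spread between these libraries.

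Sebaceous glands open into the hair follicle. Their cells, the sebocytes, fill with triacylglycerols, wax esters and sterol esters and then burst to release them as sebum. Fatty acids are desaturated and elongated, some are reduced to fatty alcohols, and acyltransferases join the alcohols or sterols to fatty acids. In mice, loss of Scd1 causes the asebia phenotype, in which sebaceous glands are severely reduced.

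The libraries held 32353957 to 79160005 counts, so that 1 read was worth 0.0119 to 0.0303 CPM (library-scaled counts, with TMM factors). Cd1d1, the gene for mouse CD1d, had 5.52 to 9.87 CPM in the controls and 1.12 and 1.19 CPM in KO, as the genotype labels say. Epidermal keratins were abundant in every library, with a mean of 13010 CPM for Krt10 in the controls, and 12 of 12 further genes of sebocytes and their duct passed the count filter, as did all 10 members. One library stood apart. The summed level of 13 hair genes, expressed in the shaft or the inner root sheath, was 712 CPM in KO replicate 1, against 16.7 CPM in KO replicate 2 and 12.9 to 24.9 CPM in the controls.

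Awat2 was the member that rose in KO skin. Its product, acyl-CoA wax alcohol acyltransferase 2, joins fatty alcohols to fatty acids to make wax esters. Of the 10 members, 1 rose, 0 fell and 9 did not pass an adjusted p of 0.05 (edgeR quasi-likelihood test, Benjamini-Hochberg over 17472 genes). Over all tested genes 3.76% passed, 2.71% as higher and 1.05% as lower, which is 474 and 183 genes. With library size alone, which shifted the median of all genes to -0.16, they were 268 and 974, and 0 members passed. An unadjusted p under 0.05 was found for 2 members, Awat1 and Awat2, both higher, and for 21.9% of all tested genes, 11.6% higher and 10.3% lower. The median log2 fold change of the members was 0.03, against -0.02 for all tested genes, and 5 members had positive and 5 negative values. In bulk skin, a change in the number of sebocytes and a change in RNA per sebocyte cannot be told apart.

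The 2 wax ester synthases, Awat1 and Awat2, lie near each other on the X chromosome, and their upstream sequences are shown because Awat2 carried the call and Awat1 had the same direction. Awat1 spans X:100572247-100578206 and Awat2 X:100402221-100494278 (GRCm38), 78.0 kb apart, with the related acyltransferase gene Dgat2l6 between them. RefSeq's promoter table for GRCm38.p6 gives 1 start for Awat1, on the plus strand, and 2 for Awat2, on the minus strand. The 250 bases before each start are printed 5′ to 3′ on the gene's own strand, with capitals marking CCAAT or its reverse complement. The first is chrX:100571997-100572246, the second chrX:100442718-100442967 and the third chrX:100412588-100412837.
Awat1: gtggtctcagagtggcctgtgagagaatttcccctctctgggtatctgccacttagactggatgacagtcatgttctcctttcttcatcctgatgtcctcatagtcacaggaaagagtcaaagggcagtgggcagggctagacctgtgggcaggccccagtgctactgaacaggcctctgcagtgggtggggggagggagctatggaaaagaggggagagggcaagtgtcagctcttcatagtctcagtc
Awat2, first start: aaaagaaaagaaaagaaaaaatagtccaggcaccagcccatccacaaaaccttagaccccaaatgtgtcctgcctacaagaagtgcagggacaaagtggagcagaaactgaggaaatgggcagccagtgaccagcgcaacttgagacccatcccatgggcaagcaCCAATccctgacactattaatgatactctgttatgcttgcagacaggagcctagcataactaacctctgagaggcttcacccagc
Awat2, second start: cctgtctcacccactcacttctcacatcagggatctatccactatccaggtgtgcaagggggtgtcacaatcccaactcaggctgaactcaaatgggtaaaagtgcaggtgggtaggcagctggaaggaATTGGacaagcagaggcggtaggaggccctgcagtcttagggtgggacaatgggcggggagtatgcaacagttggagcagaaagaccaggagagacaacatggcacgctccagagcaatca

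A CCAAT box, the letters CCAAT on either strand, began at -85 and at -121 relative to the 2 Awat2 starts. Awat1 had none before its start and 1 on the opposite strand at position 43 after it. Such a match was present in 37.41% of 32851 promoter windows of 300 bases, 250 before and 50 after the start. Members' windows on chromosome 18, where Mc5r lies, were not used, and the rest of the table covered 7 of the 10 members in 8 windows. CCAAT also lay in the window of Soat1. The nuclear receptor half-site AGGTCA, found in 16.26% of all windows on either strand, was in 0 of these 8 windows, and so was its direct repeat with 1 base between, known as DR1 (0.04% of all windows). These are matches of letters in a short window, and they do not show where a factor bound.

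**Figure D1:**
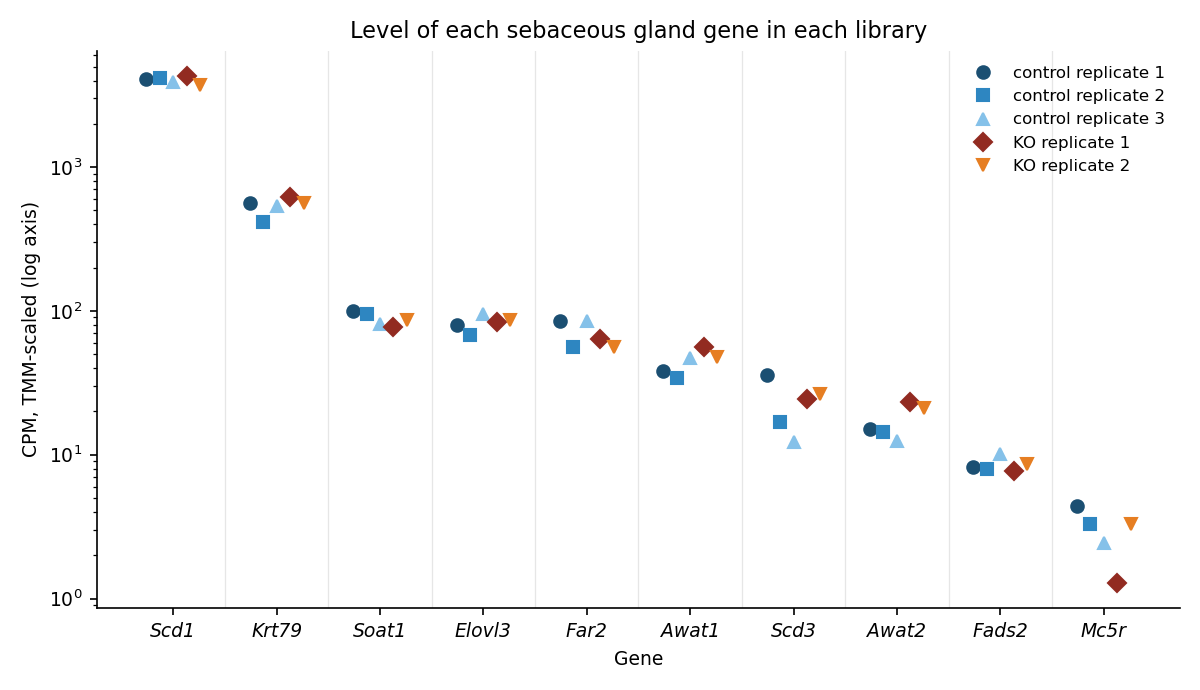
TMM-scaled CPM of each sebaceous gland gene (x axis, ordered by mean level) in each of the 5 libraries on a log axis. Blue symbols are the 3 control and red or orange symbols the 2 KO libraries. Both KO points lie above all control points for Awat2, Awat1 and Krt79, and Scd3 and Mc5r show the widest scatter.

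Awat2 had 15.1, 14.4 and 12.5 CPM in control replicates 1, 2 and 3 and 23.2 and 20.96 CPM in KO replicates 1 and 2. Both KO libraries lay above every control library, and the gap between the groups was wider than the spread within either. The means were 14.01 ± 1.32 CPM (SD, n = 3) and 22.1 ± 1.58 CPM (SD, n = 2), a fold of 1.57 and a log2 fold change of 0.65 (SE 0.14, 95% interval 0.35 to 0.96, edgeR adjusted p = 0.032). The call did not hold without control replicate 1 (adjusted p = 0.143), without KO replicate 1 (0.363) or without KO replicate 2 (0.152), nor with scaling by library size alone (0.50, adjusted p = 0.0572), while the log2 fold change stayed between 0.58 and 0.72 with each library left out. Without control replicate 1 edgeR called 0 genes of the whole table, with 2253 at an unadjusted p under 0.05. The gene Otud6a lies within the RefSeq span of Awat2 on the other strand but shares 0 of its GENCODE exon bases, and it had at most 14 counts in a library.

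Awat1, which encodes the first of these wax synthases, had 38.3, 34.2 and 46.8 CPM in the controls and 56.4 and 47.6 CPM in KO. Both KO values were above the controls, but KO replicate 2 was above control replicate 3 by less than 1 CPM. The log2 fold change was 0.39 (SE 0.15, 95% interval 0.06 to 0.72), and it did not pass (edgeR adjusted p = 0.166). Without control replicate 3 it passed (0.52, edgeR adjusted p = 0.0098), in a fit that called 3277 of 17403 genes, 1842 of them higher. Awat1 gave 2.27 to 3.73 reads for each Awat2 read, and its control range, 2.37 to 3.73, overlapped the KO values of 2.43 and 2.27. No window of 50 bases of the Awat2 transcript occurred in an Awat1 transcript, and the aligned bases were 65.0% identical. The 3 members whose groups did not overlap, Awat1, Awat2 and Krt79, were all higher in KO, and 0 members had both KO values below the controls. Over all tested genes the groups did not overlap for 39.9%, with KO above for 19.9% and below for 20%.

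Far2, the fatty acyl-CoA reductase that supplies fatty alcohols for wax esters, had 84.8, 55.7 and 85.3 CPM in the controls and 63.9 and 55.9 CPM in KO. Control replicate 2 lay with the KO libraries, apart from the other two controls. The log2 fold change was -0.33 (SE 0.18, 95% interval -0.73 to 0.07) and did not pass (edgeR adjusted p = 0.32). Without control replicate 2 Far2 passed as lower (-0.51, edgeR adjusted p = 0.0219), in a fit that called 1334 of 17097 genes, 512 of them lower. The Far2 exons share 837 bases with Ergic2, a protein-coding gene on the other strand that had 564 to 1962 counts, and whether counting used strand is not given in the labels, so part of the Far2 count is uncertain.

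Soat1, which esterifies cholesterol, had 100.1, 95.5 and 80.9 CPM in the controls and 77.1 and 86.2 CPM in KO, so the groups overlapped. Its log2 fold change was -0.18 (SE 0.13, 95% interval -0.47 to 0.11, edgeR adjusted p = 0.461). It was 0.16 with offsets for transcript length and GC content, so its direction depended on that correction, and it did not pass in either fit.

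The desaturase Scd1, which puts a double bond into saturated fatty acids, was the most abundant member and its level differed little. It had 4078, 4167 and 3930 CPM in the controls and 4296 and 3744 CPM in KO, with the lowest and the highest of the 5 values both in KO. The log2 fold change was -0.01 (SE 0.12, edgeR adjusted p = 0.964), and its 95% interval ran from -0.28 to 0.25. Scd1 ranked between 12 and 18 by CPM among the 17472 tested genes in each library. It took 80.6% to 85.4% of all counts of the 10 members, which together made 0.439% to 0.533% of a library. Without Scd1 the members summed to 928, 713 and 882 CPM in the controls and 953 and 900 CPM in KO, and these groups overlapped.

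Scd3, a desaturase paralogue that in mouse skin marks sebocytes, varied most within the controls in relative terms. It had 35.6, 17.0 and 12.2 CPM in the controls and 24.2 and 26.3 CPM in KO. Control replicate 1 was the highest of all 5 libraries and control replicate 3 the lowest, 2.91 times apart, with both KO values between the first and the second control. Its log2 fold change was 0.21 (SE 0.49, edgeR adjusted p = 0.85). The 95% interval, -1.09 to 1.52, held 2-fold changes in either direction. Without control replicate 1 it was 0.79 (edgeR adjusted p = 0.145), and without control replicate 3 it was -0.06.

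Scd3 lies 150.4 kb from Scd1 on chromosome 19, in a cluster that also holds Scd2 and Scd4. There were 0.311 to 0.873 Scd3 reads for every 100 Scd1 reads. Of the 100-base windows of the longest Scd3 transcript, 2.54% occurred without mismatch in a Scd1 transcript, and 0.77% in a Scd2 transcript. The aligned bases of the longest Scd1 and Scd3 transcripts were 71.5% identical. The labels do not say how shared reads were counted, and with Scd1 at 3744 to 4296 CPM a small share of its reads would be a large share of the Scd3 count, so the Scd3 level is uncertain. Scd2, the form of many tissues outside the gland, had a mean of 172 CPM (SD 34.3, 3 controls) against 154 CPM (SD 31.4, 2 KO libraries). Its log2 fold change of -0.16 (SE 0.18, edgeR adjusted p = 0.659) was 0.03 with length and GC offsets.

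The elongase Elovl3, which makes very long-chain fatty acids in sebocytes and brown fat of mice, had 79.7, 68.2 and 95.4 CPM in the controls. Its KO values of 83.5 and 86.9 CPM lay inside that range. The fit gave a log2 fold change of 0.07 (SE 0.15, 95% interval -0.25 to 0.40, edgeR adjusted p = 0.82). Fads2, the delta-6 desaturase, which in human sebaceous glands makes sapienic acid, lay between 7.75 and 10.1 CPM in all 5 libraries, with overlapping groups (-0.09, SE 0.16, edgeR adjusted p = 0.788). Neither enzyme differed by more than the spread between the libraries of a group.

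Mc5r, the melanocortin receptor that promotes sebum production in mice, had 4.42, 3.30 and 2.43 CPM in the controls and 1.29 and 3.31 CPM in KO. It was the rarest member, with 66 to 373 counts, and the 2 KO libraries differed 2.56-fold. KO replicate 1, the library with high hair genes, held the lowest value, while KO replicate 2 lay among the controls. The log2 fold change of -0.58 (SE 0.38, 95% interval -1.42 to 0.27) did not pass (edgeR adjusted p = 0.409). It was -1.40 without KO replicate 2 and -0.05 without KO replicate 1 (edgeR adjusted p = 0.182 and 0.972), so its size rested on that library. Whether the hair genes of KO replicate 1 bear on this value was not tested.

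Krt79, a keratin of the sebaceous duct and the upper hair follicle, had 562, 417 and 536 CPM in the controls and 616 and 565 CPM in KO. Both KO libraries were above the controls, but KO replicate 2 exceeded control replicate 1 by less than the controls differed among themselves. Between the groups the log2 fold change was 0.23 (SE 0.14, 95% interval -0.09 to 0.54, edgeR adjusted p = 0.388).

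**Figure D2:**
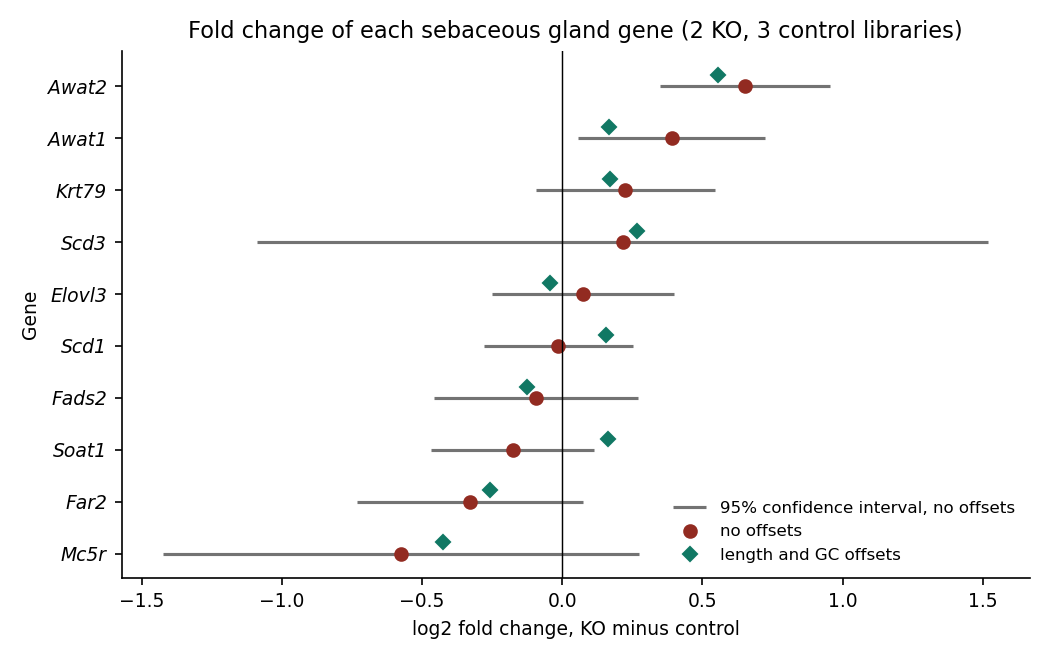
Log2 fold change of each sebaceous gland gene, KO minus control (x axis), from the edgeR fit without offsets (red circles, with 95% confidence intervals) and with offsets for transcript length and GC content (green diamonds). The interval of Awat2 runs from 0.35 to 0.96, and the Scd1, Soat1 and Elovl3 diamonds lie on the other side of 0 from their circles.

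Compared per kilobase of the longest annotated transcript, the members spanned a wide range of levels. Scd1 was highest at 775 to 889 CPM per kilobase over the 5 libraries, followed by Krt79 at 170 to 251 and Elovl3 at 36.3 to 50.7. Next came Awat1 at 24.6 to 40.6, which overlapped Elovl3, and Far2 at 16.0 to 24.5, whose highest value lay just under the lowest of Awat1. Soat1 (9.20 to 11.96), Awat2 (6.32 to 11.7) and Scd3 (3.50 to 10.2) overlapped as neighbours in this order. Fads2 (2.46 to 3.20) and Mc5r (0.33 to 1.13) were lowest, each below the range of the gene before it. The libraries did not order the members alike: 5 members had their lowest control value in control replicate 2 (Elovl3, Awat1, Fads2, Far2 and Krt79) and the other 5 in control replicate 3.

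The members' transcripts differed in length, and in these libraries fold changes ran with transcript length. Spearman's rho of log2 fold change with length was -0.52 across 16776 tested genes with a known length, as a description, since genes share their libraries. Genes of 1500 to 2000 bases, the class of Awat2 (1984 bases) and Elovl3, had a median of 0.18. Genes of 1000 to 1500 bases, the class of Awat1 (1390 bases), had a median of 0.29, and genes of at least 8000 bases, the class of Soat1 (8371 bases), of -0.32. Awat2 lay 0.48 above the median of its class and Awat1 0.10 above. Offsets that removed each library's trend on length and GC content gave Awat2 a log2 fold change of 0.56 (SE 0.11, edgeR adjusted p = 0.0191), where 3.66% of genes passed, 2.91% higher and 0.751% lower. Awat1 then had 0.17 (edgeR adjusted p = 0.547). Awat2 did not pass with offsets on length alone (0.52, edgeR adjusted p = 0.179), where 0.119% of genes passed, 0.0894% higher and 0.0298% lower.

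**Figure D3:**
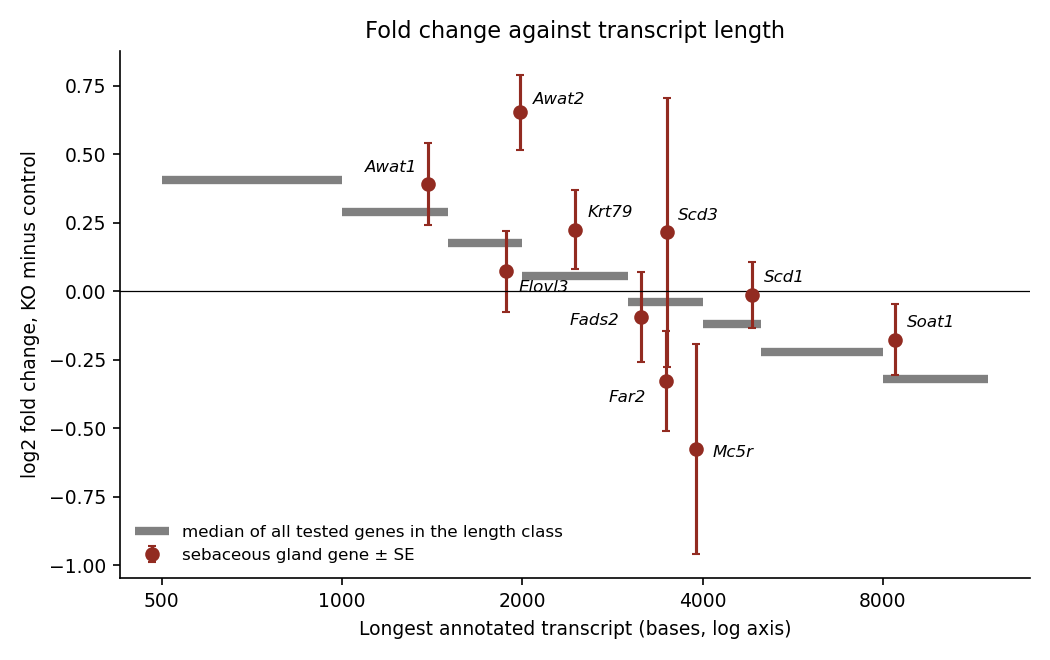
Log2 fold change of each sebaceous gland gene, KO minus control, with its SE (red), against the length of its longest annotated transcript on a log axis. Grey bars are the medians of all tested genes in 8 length classes, of which the outermost are open-ended. The medians fall from 0.41 below 1000 bases to -0.32 at 8000 bases or more, and Awat2 lies farther above its class than any other member.

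Other genes of sebocytes and of lipid synthesis were mostly not called. Of 12 genes of the sebocyte lineage and its duct 0 passed in either direction, with a median log2 fold change of 0.08 (0.01 with length and GC offsets) and 2 genes at an unadjusted p under 0.05. Krt17, a keratin of the follicle and duct, had 0.46 (SE 0.12, edgeR adjusted p = 0.0684). It was called as higher under 5 of 16 alternatives, among them without control replicate 3 (0.55, edgeR adjusted p = 0.00508). That last fit called 3277 of 17403 genes, 1842 of them higher. Pparg, the nuclear receptor that drives sebocyte differentiation, went from 18.3 ± 0.225 CPM to 14.6 ± 1.05 CPM (-0.33, SE 0.13, edgeR adjusted p = 0.174), and Plin2, a coat protein of lipid droplets, had 0.25 (SE 0.12, edgeR adjusted p = 0.26). Both KO values of Pparg lay below the controls. With length and GC offsets none of these 3 genes passed, and Pparg had -0.41 (edgeR adjusted p = 0.0524).

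Of 14 other enzymes of wax, sterol ester and triacylglycerol synthesis 0 rose, 1 fell and 13 did not pass, with a median of -0.10. An unadjusted p under 0.05 was found for 4 of the 14, and for 21.9% of all tested genes. The gene that fell was Gpam, which starts glycerolipid synthesis from glycerol phosphate. Its mean was 38.2 CPM in the 3 controls (SD 3.64) and 25.8 CPM in the 2 KO libraries (SD 0.38), a log2 fold change of -0.56 (SE 0.13, edgeR adjusted p = 0.0416). Its longest transcript has 6172 bases, and its call was lost with offsets for length and GC content (-0.33, edgeR adjusted p = 0.0981), with length offsets (0.337), without control replicate 1 (0.229), without KO replicate 1 (0.362) and without KO replicate 2 (0.281). Far1, the other fatty acyl-CoA reductase, had -0.54 (SE 0.14, edgeR adjusted p = 0.0626). It was called as lower under 6 of 16 alternatives, among them without control replicate 3 (-0.60, edgeR adjusted p = 0.00584). That last fit called 3277 of 17403 genes, 1435 of them lower. Dgat2l6, the gene between the wax synthases, had 0.15 (SE 0.27, edgeR adjusted p = 0.79; -0.10 without KO replicate 1).

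Of 16 other elongases, desaturases and their partner enzymes 15 could be tested and 0 passed, with a median of 0.01 and 0 at an unadjusted p under 0.05. The smallest p belonged to Elovl1 (0.23, SE 0.12), Hacd1 (0.25, SE 0.14) and Tecr (0.20, SE 0.12), with edgeR adjusted p of 0.298, 0.324 and 0.365, and Tecr had -0.14 with length and GC offsets. Of 15 genes of fatty acid synthesis and its regulators 0 passed, with a median of 0.05 and 1 at an unadjusted p under 0.05. Thrsp, a lipogenic regulator, had 0.58 (SE 0.18, edgeR adjusted p = 0.102) and Fasn, the fatty acid synthase, -0.38 (SE 0.17, edgeR adjusted p = 0.229). Fasn was called as lower without control replicate 2, in a fit that called 1334 of 17097 genes, 512 of them lower.

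**Figure D4:**
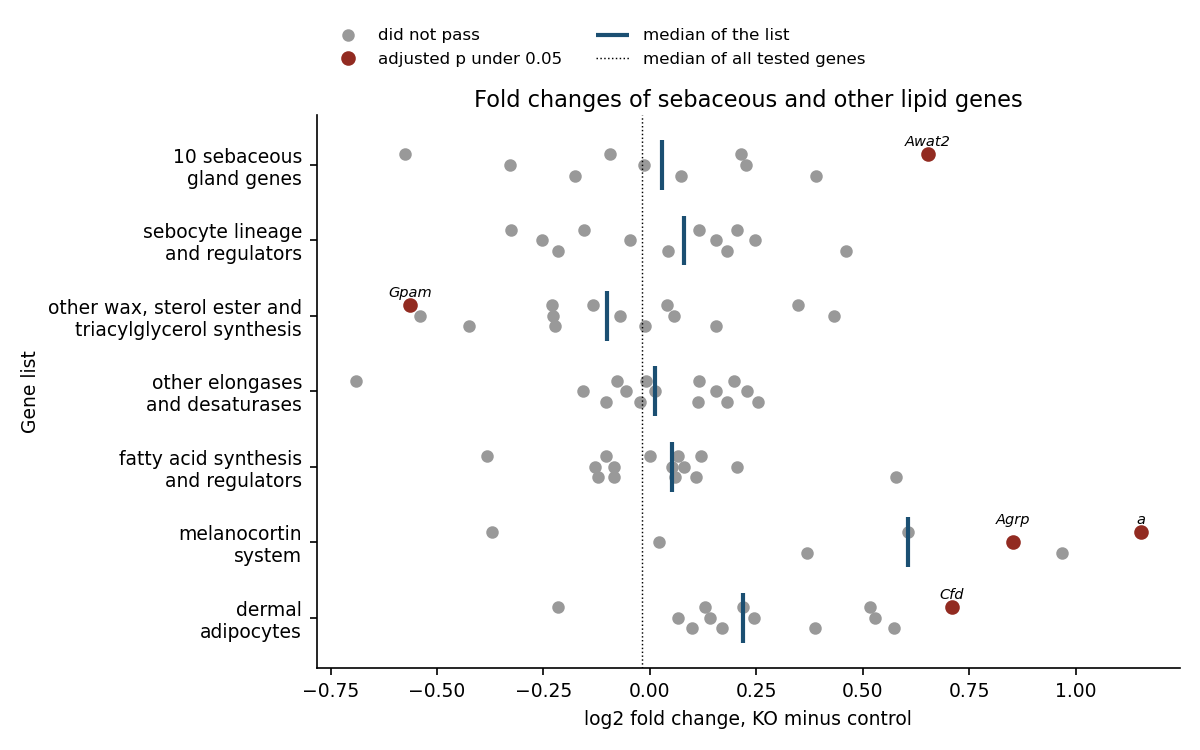
Log2 fold change of every tested gene, KO minus control (x axis), in 7 gene lists (rows). Red points passed an adjusted p of 0.05, blue bars are list medians and the dotted line is the median of all tested genes. Awat2, Gpam, Agrp, a and Cfd are the named red points.

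The melanocortin system, to which Mc5r belongs, held 2 genes that rose. Of its 10 listed genes 7 could be tested, 2 rose, 0 fell and 5 did not pass, with a median of 0.61 (0.36 with length and GC offsets). An unadjusted p under 0.05 was found for 5 of the 7, and for 21.9% of all tested genes. The 2 that rose were a, the agouti gene, whose product blocks the melanocyte receptor Mc1r (1.15, SE 0.23, edgeR adjusted p = 0.0291), and Agrp, for a related antagonist known from the hypothalamus (0.85, SE 0.20, edgeR adjusted p = 0.0445). Agrp averaged 2.67 CPM in the 3 controls (SD 0.11) and 4.82 CPM in the 2 KO libraries (SD 0.45). With offsets for length and GC content it missed the threshold (0.36, edgeR adjusted p = 0.335) while a passed (1.21, edgeR adjusted p = 0.0325). With offsets for length alone neither passed (adjusted p = 0.105 for a and 0.441 for Agrp). Neither passed without control replicate 1 or without either KO library (adjusted p = 0.121 to 0.343). Exons annotated for a overlap those of Raly, and those of Agrp overlap Ctcf and Gm5914, so reads of these genes may have been shared. Mc3r had 0 counts in all 5 libraries, which does not show that its RNA was absent.

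Markers of other cells in the skin were measured beside the members. Adipocytes also make Scd1, and 13 adipocyte genes summed to 1132 to 1679 CPM in the controls and 1674 to 1897 CPM in KO. Of these 1 rose, Cfd (0.71, SE 0.15, edgeR adjusted p = 0.0351), 0 fell and 12 did not pass, with a median of 0.22. An unadjusted p under 0.05 was found for 5 of the 13, and for 21.9% of all tested genes. With length and GC offsets Cfd was not called (0.23, adjusted p = 0.706) and Fabp4, a fatty acid carrier, was (0.72, edgeR adjusted p = 0.0261). Cfd was also not called without control replicate 1 or either KO library (adjusted p = 0.19 to 0.346). Of 10 skeletal muscle genes 3 rose (Pvalb 0.94, Tnnc2 0.71 and Mylpf 0.60), 1 fell (Ttn, -0.59) and 6 did not pass, with 7 at an unadjusted p under 0.05. The 10 muscle genes summed to 4912 to 5208 CPM in the controls and 6318 to 7138 CPM in KO. With length and GC offsets Tnnc2 (0.26), Mylpf (0.20) and Ttn (-0.18) were not called, Pvalb was, and the list had 2 genes higher and 0 lower. None of these 4 passed without control replicate 1 or without either KO library. Exons of Tnnc2 share 592 bases with Ube2c and those of Ttn share 453 with Gm13938, both on the other strand, so reads may have been shared. None of the 13 adipocyte or 10 muscle genes was at 0 in any library, and their part in the values of the members was not tested. Of 10 genes of the epidermis between follicles 0 passed, with 3 at an unadjusted p under 0.05 and a median of 0.10 (-0.01 with length and GC offsets). Of 13 hair shaft and inner root sheath genes 0 passed in the edgeR fit, with 0 at an unadjusted p under 0.05. With robust estimation off 6 were called as higher, with DESeq2 5 and with the replicate block 1. Those fits called 657, 1834 and 2037 genes of the whole table. The hair genes' median log2 deviation from the controls' mean was 5.53 in KO replicate 1 and -0.11 in KO replicate 2. The members' median deviation was 0.07 and 0.06 in the same libraries and -0.16 to 0.12 in the controls. Awat2 had a log2 fold change of 0.58 without KO replicate 1, where a lone KO library was assumed to vary like the controls.

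**Figure D5:**
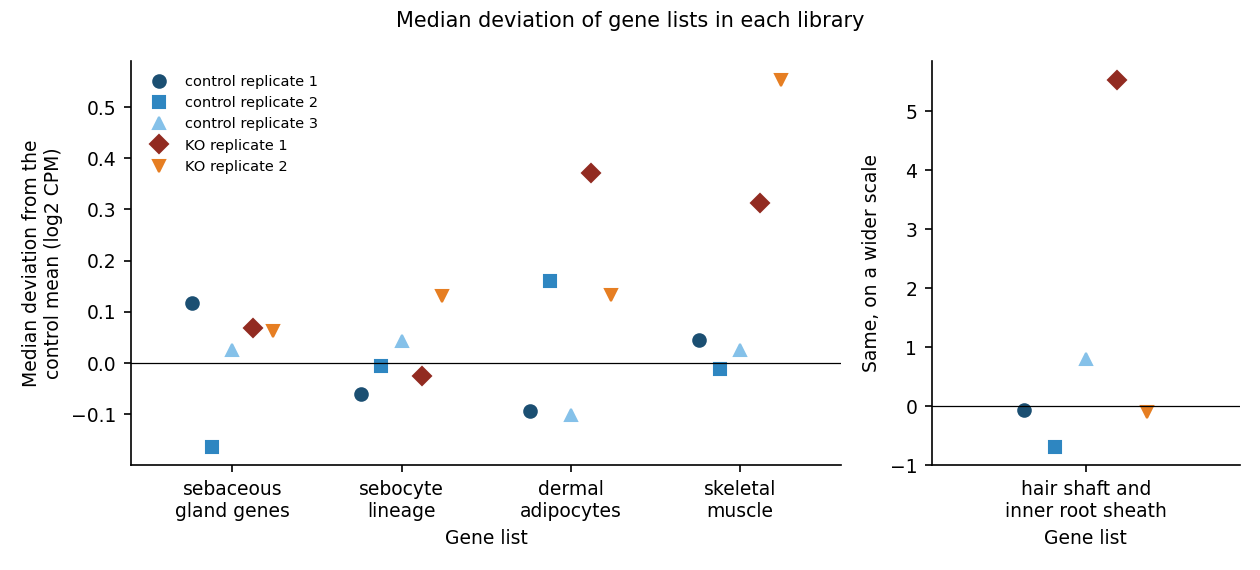
Median deviation of each gene list from its control mean on the log2 CPM scale (y axis) in each library, for sebaceous gland, sebocyte lineage, adipocyte and muscle lists (left) and for hair shaft and inner root sheath genes on a wider scale (right). The sebaceous gland genes stay between -0.16 and 0.12 in all 5 libraries, while the hair list reaches 5.53 in KO replicate 1.

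Over the 5 libraries, the median profile of the members was nearly flat, at -0.23 in control replicate 2 and between -0.001 and 0.10 in the others, as log2 deviations from each gene's mean. The genes outside the list whose profiles lay nearest to it were Pde4a, Abcf3, Ttll12, Polr3gl, Nudt9, Rfk, Paf1 and Cd82. Their root mean square differences were 0.019 to 0.032 on the log2 scale, against a median of 0.22 over 14401 genes with at least 1 CPM. The members themselves lay 0.084 (Krt79) to 0.63 (Mc5r) from their own median profile. The 8 genes were picked as the nearest of 14401, so their greater closeness follows from that choice and says nothing about the members.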

How the data were processed

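RNA was extracted from skin and libraries were made from total RNA, per the labels. The authors deposited whole-number read counts per Entrez gene, not normalized, for 5 libraries. FastQC, HISAT2 2.0.4 and DESeq2 1.16.1 and the build GRCm38 (mm10) are named in the submitters' processing notes; the counting program, the strand setting, any selection of RNA and the treatment of shared reads are not given there or in the labels.

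From the deposited counts, symbols and positions were matched by Entrez identifier to RefSeq GRCm38.p6 (25275 of 27179 identifiers), and the longest transcript and its GC content were taken from GENCODE M21 (96.0% of tested genes). All 123 listed genes matched. filterByExpr (minimum count 10) kept 17472 genes. Libraries were scaled with TMM (factors 0.936 to 1.07), and KO was compared with control by the edgeR 4.0.16 quasi-likelihood F test (robust, no covariates, R 4.3.3), adjusted over all tested genes by Benjamini-Hochberg at 0.05. The common biological coefficient of variation was 0.154. Intervals are at 95%. Deviations used log2 CPM with a prior count of 2.

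The members and gene lists were chosen with earlier results of these data known. All members are named. Of each other list, genes that passed are named, otherwise up to 3 with the smallest p. Scd2, Far1, Dgat2l6, Krt10, Fabp4, Cidea, Elovl6 and the overlapping genes were named besides, after their values were seen. The 8 most alike genes were chosen by root mean square difference. The 16 alternatives were other scalings, filters and tools (DESeq2 1.42.0, limma 3.58.1 voom with quality weights), robust estimation off, length or length and GC offsets (mgcv 1.9.3), a replicate block and leaving out each library. Libraries of a group differed beyond sampling noise (chi-square over its degrees of freedom, 22.9 to 76.3). The edgeR fit and the offsets were tested on simulated data. Transcript windows and alignments used Biopython 1.88. Depth was 32353957 to 79160005 counts per library. The planned comparison of proteins was not done, and transcripts were compared in its place. The longest GENCODE transcript stands for each gene's length.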

Additional observations from a re-analysis of the deposited data

How the results depend on the processing

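Genes past the threshold numbered 657 and were 474 higher and 183 lower. They were 1242 with library size alone (268 higher, 974 lower; the median of all genes shifted to -0.16), 1036 without a count filter, 1834 with DESeq2, 4662 with limma voom, 2037 with the replicate block, 20 with length offsets, and 0 to 3277 with 1 library left out (0 without control replicate 1, 1 without KO replicate 1, 128 without KO replicate 2). Members past the threshold, 1 in the edgeR fit, were 0 with library size alone and with length offsets, 4 with limma voom (Awat1, Awat2, Far2 and Mc5r), 2 with the replicate block (Awat1 and Awat2) and 0 to 2 with 1 library left out. Awat2 kept a positive log2 fold change, 0.50 to 0.72, under all 16 alternatives, with adjusted p from 0.00122 to 0.363, and was not called under 5 of them, including library size alone (0.0572). Awat1, Krt79, Far2 and Mc5r also kept their direction under all 16. The median of the members, 0.03, was -0.12 with library size alone and 0.16 with length and GC offsets. Direction changed, without a call, for Elovl3 with library size alone (-0.072), for Scd3 with limma voom (-0.26) and for Fads2 with the replicate block (0.010). With length and GC offsets Scd1 had 0.16, Elovl3 -0.043 and Soat1 0.16, and with length offsets 0.13, -0.072 and 0.12. Among the listed genes followed through every alternative, Tecr turned to -0.14, Nr1h3 to -0.0060 and Scd2 to 0.025 with length and GC offsets, and Tecr to -0.084 and Scd2 to 0.025 with length offsets. Further listed genes also changed direction with length and GC offsets, among them Cidea (0.12 to -0.25) and Elovl6 (-0.08 to 0.19), neither called in either fit. With 1 library left out Scd2 ranged from -0.38 to 0.037, Dgat2l6 from -0.10 to 0.37, Scd1 from -0.12 to 0.082, Elovl3 from -0.039 to 0.20, Scd3 from -0.062 to 0.79 and Fads2 from -0.17 to 0.011. Among the listed genes followed through every alternative, calls gained were Far1 (library size alone, no count filter, DESeq2, limma voom, replicate block), Krt17 (the last 4 of these), Thrsp (DESeq2, limma voom), and Pparg, Hacd1 and Fasn (limma voom), beside those with 1 library left out. Other listed genes gained calls too. The hair list, with 0 in the edgeR fit, had 6 higher with robust estimation off and 5 with DESeq2. Past the threshold with DESeq2 and limma voom were 3 and 6 adipocyte genes, 2 and 4 epidermal genes, and 7 and 7 muscle genes. In the edgeR fit these lists had 1, 0 and 4. Over all genes, 3277 of 17403 were called without control replicate 3 and 1334 of 17097 without control replicate 2. The causes were not tested. In the labels, libraries of the 2 groups share only a replicate number. Deviations of same-numbered libraries correlated at 0.02 and 0.06. With 2 KO libraries the KO deviations mirror each other, so these correlations are not independent and do not settle whether libraries were paired. The replicate block left 1 residual degree of freedom. Counts of 66 to 373 limit Mc5r.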
